A study of Mus musculus with 12 samples.

Results

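This account covers 9 genes of insulin signalling and glucose production in the livers of male mice, the insulin receptor gene Insr, the receptor substrate genes Irs1 and Irs2, the coactivator gene Ppargc1a, the secreted binding protein gene Igfbp1, the enzyme genes Pck1, Fbp1 and G6pc, and the glucose transporter gene Slc2a2. A gene was read from the probe set whose platform annotation gave that symbol and no other, or from the brightest of them where there were several, and all 9 of the 9 were measured among 22180 genes. Expression was measured on single-colour Affymetrix arrays, 1 per liver, in wild-type mice and in mice called Lats2-CKO, each fed a normal chow that held no cholesterol or a Paigen-type chow in which cholesterol made up 1.25%, called the high-cholesterol diet. The mice were 8 weeks old when the diets began and the diets lasted 9 weeks, with 3 livers in each of the 4 groups. The product of Lats2 is a kinase in the Hippo pathway. The labels also call the mutant Lats2-KO, and they give neither the deleted part of the gene, nor the cells or the driver of the deletion, nor the strain, the hour of collection or whether the mice had been fasted. The question put to these genes was whether the diet, the genotype or both together altered the transcripts through which the liver senses insulin and makes glucose.

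In the fed liver insulin binds its receptor, the receptor phosphorylates the IRS proteins, and the kinases recruited by them keep the transcription factor FOXO1 out of the nucleus. In fasting, glucagon acts through cyclic AMP and the factor CREB, PGC-1alpha and FOXO1 become more active, and the genes of gluconeogenesis and the binding protein gene Igfbp1 are transcribed more. Several of the 9 genes therefore follow feeding and the time of day in normal liver as well as disease, which bears on the levels below because neither was recorded in the labels.

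The start regions of 4 of the genes are printed because these genes carry the extremes of the data that follow. Igfbp1 and G6pc varied most between livers of 1 group, Pck1 varied least, and Ppargc1a had the largest fitted change with diet over both genotypes. Each sequence is the 250 bases before the annotated start, 5′ to 3′ on the gene's strand, from RefSeq (GRCm38.p6), at chr11:7197537-7197786 (+ strand) for Igfbp1, chr11:101367466-101367715 (+ strand) for G6pc, chr2:173152823-173153072 (+ strand) for Pck1 and chr5:51567726-51567975 (- strand) for Ppargc1a. Capitals mark the insulin response motif CAAAACA or its reverse complement TGTTTTG in Igfbp1 and G6pc, and the cyclic AMP response core ACGTCA or its reverse complement TGACGT in Pck1 and Ppargc1a.
Igfbp1: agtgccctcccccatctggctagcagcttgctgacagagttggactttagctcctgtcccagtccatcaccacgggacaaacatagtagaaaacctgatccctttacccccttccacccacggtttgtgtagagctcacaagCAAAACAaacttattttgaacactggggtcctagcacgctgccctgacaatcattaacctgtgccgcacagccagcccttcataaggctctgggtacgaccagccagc
G6pc: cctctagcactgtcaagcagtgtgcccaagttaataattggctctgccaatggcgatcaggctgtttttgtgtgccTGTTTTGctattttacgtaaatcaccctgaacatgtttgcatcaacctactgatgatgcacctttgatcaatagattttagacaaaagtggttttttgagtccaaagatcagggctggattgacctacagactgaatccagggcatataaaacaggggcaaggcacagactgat
Pck1: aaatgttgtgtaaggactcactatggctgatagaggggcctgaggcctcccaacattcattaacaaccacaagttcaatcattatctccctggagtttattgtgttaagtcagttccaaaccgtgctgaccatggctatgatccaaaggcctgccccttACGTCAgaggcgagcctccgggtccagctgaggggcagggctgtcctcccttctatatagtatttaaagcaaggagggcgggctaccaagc
Ppargc1a: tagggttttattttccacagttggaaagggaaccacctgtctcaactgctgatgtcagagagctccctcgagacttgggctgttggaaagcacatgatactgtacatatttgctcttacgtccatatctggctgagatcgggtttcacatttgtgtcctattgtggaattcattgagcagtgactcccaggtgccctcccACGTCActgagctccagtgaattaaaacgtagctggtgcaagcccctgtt

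Both strands of these windows were searched for the 3 motifs, none of which contains another. A start region was held for 8 of the 9 genes, all but Insr. CAAAACA or its complement was present in Irs1, Irs2, G6pc and Igfbp1, 4 of 8, and in 5.56% of 32851 windows of the same length. In Igfbp1 it lay from -108 to -102 relative to the start, and in G6pc from -174 to -168. ACGTCA or its complement was present in Pck1, from -91 to -86, and in Ppargc1a, from -50 to -45, and in 6.47% of all windows. GTAAACA, a core bound by FOXO factors, was in none of the 8 windows and in 3.17% of all of them. The absence of these letters does not show that a window lacks a site for FOXO factors. These are matches of letters, not measured binding.

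All arrays carried a strong hepatocyte signal, with a mean of 6 hepatocyte markers between 12.16 and 12.43 log2 units. The third wild-type array on normal diet stood apart from its group before any of the 9 genes was considered. Its mean correlation over all genes was 0.981 with its own group and 0.987 with the wild-type high-cholesterol arrays, and its nearest array was one from a Lats2-CKO liver on the high-cholesterol diet (0.993). The mean of 9 pericentral hepatocyte markers was 7.11 on it, against 8.17 to 8.95 on the other 5 normal-diet arrays and 7.11 to 7.53 on the 6 high-cholesterol arrays, so this liver went against its diet label for that list. Single markers that changed with diet were mixed. The Kupffer cell marker Clec4f was 7.47 on this array, below the 7.81 to 8.41 of the high-cholesterol arrays. Cidec, a lipid droplet gene, was 6.62, above their 3.91 to 5.97, so both lay on the normal-diet side. The markers Rhbg, Oat, Hal and Cd5l lay within the high-cholesterol range. Whether the array was mislabelled was not tested, and results that turn on it are given with and without it. The arrays also fell into 2 sets by their overall median, with 4 normal-diet and 2 high-cholesterol arrays in the higher set and the reverse in the lower one, and genotypes balanced within each. Lats2 itself was lower in all 6 Lats2-CKO livers (4.37 to 4.99) than in all 6 wild-type livers (5.12 to 5.97), by 0.72 ± 0.16 log2 units (SE), but the change did not pass the limma test (adjusted p = 0.486).

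With all 12 arrays, none of the 9 genes passed the limma test at an adjusted p of 0.05 in any of the 7 comparisons. The genome-wide shares that passed were 0.0% for diet in wild type, 0.271% for diet in Lats2-CKO, 1.24% for diet over both genotypes, 0.0135% for genotype on normal diet, 0.0% for genotype with high cholesterol, 0.00451% for genotype over both diets and 0.00451% for the interaction of genotype and diet. At an unadjusted limma p of 0.05 the counts of the 9 genes were 1 (Fbp1), 1 (Ppargc1a), 2 (Insr and Ppargc1a), 2 (Irs1 and G6pc), 0, 2 (Irs1 and G6pc) and 0 in the same order. The shares of all genes at that level were 10.6%, 13.4%, 18.0%, 8.99%, 2.93%, 5.97% and 5.62%. The 9 genes differed widely in how far livers of 1 group lay apart, and the plot of every array shows this before any test.

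**Figure D1:**
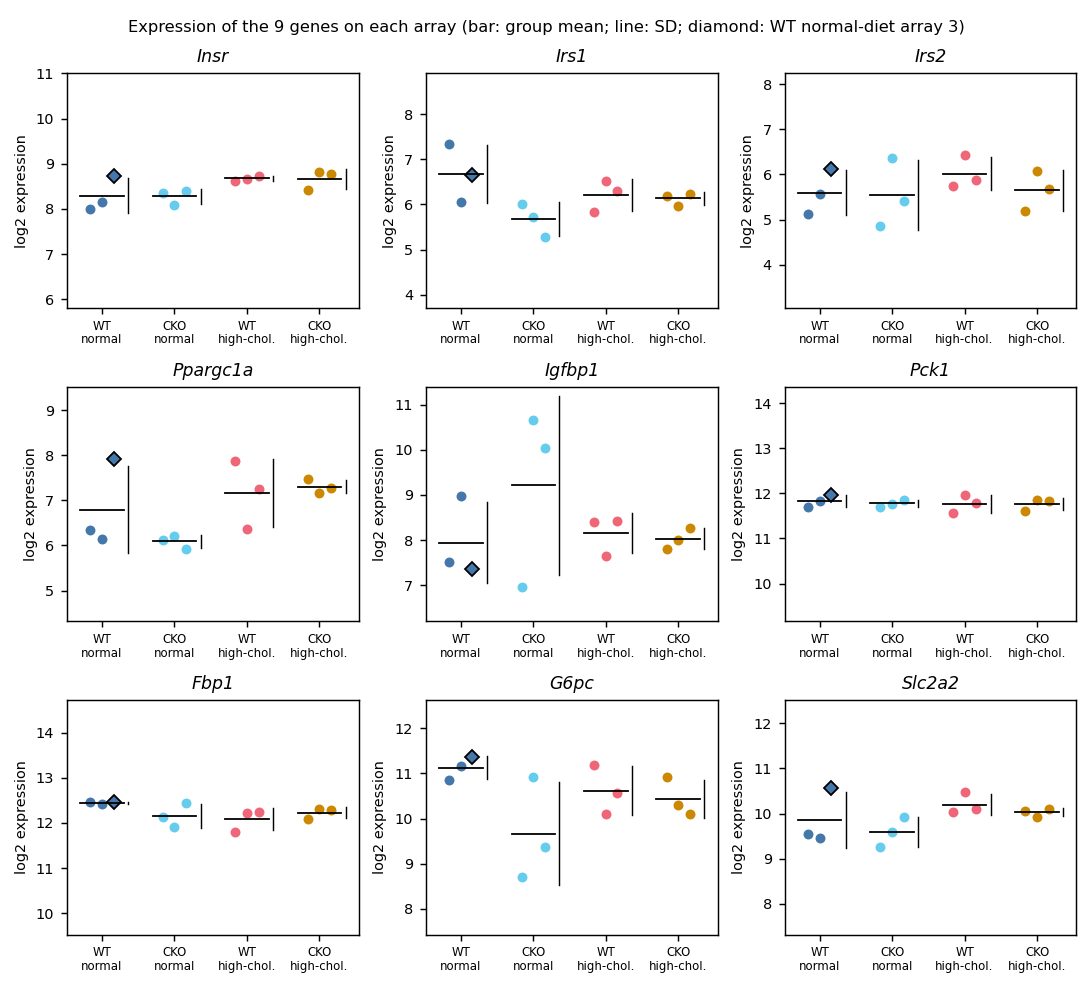
Log2 expression of each of the 9 genes on each of the 12 arrays (vertical axes, all spanning the same number of log2 units), by genotype (WT, wild type; CKO, Lats2-CKO) and diet, with the group mean (bar), its SD (line, n = 3) and the third wild-type normal-diet array as a diamond. Igfbp1 and G6pc spread widely in Lats2-CKO livers on normal diet, and Pck1 stays between 11.57 and 11.96. The diamond lies above the other normal-diet arrays for Insr, Ppargc1a and Slc2a2, and also for Pck1 and G6pc.

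Insr, the gene of the insulin receptor, tended to higher values on the high-cholesterol diet in both genotypes, without passing the test. Its values were 8.00, 8.15 and 8.74 in wild-type and 8.35, 8.10 and 8.39 in Lats2-CKO livers on normal diet. On the high-cholesterol diet they were 8.62, 8.67 and 8.73 in wild type and 8.41, 8.81 and 8.77 in Lats2-CKO. The 3 Lats2-CKO livers on the high-cholesterol diet all lay above the 3 on normal diet, by a narrow gap, and in wild type the groups overlapped because the highest of the 6 was the third normal-diet array. The diet change over both genotypes was 0.38 ± 0.13 log2 units (SE; limma adjusted p = 0.152), 0.38 in wild type and 0.39 in Lats2-CKO. The genotype change was -0.02 with normal chow and -0.01 with the high-cholesterol diet, both with an SE of 0.18.

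Irs1, the gene of an adaptor that carries the signal from the receptor to PI3-kinase, had its largest difference between the genotypes on normal diet, where it did not pass the test. Its values on normal diet were 7.34, 6.05 and 6.65 in wild type and 6.01, 5.73 and 5.27 in Lats2-CKO, so all 3 mutant livers were below all 3 wild-type livers. On the high-cholesterol diet the values were 5.83, 6.51 and 6.30 in wild type and 6.19, 5.97 and 6.24 in Lats2-CKO, and the groups overlapped. The genotype change was -1.01 ± 0.30 log2 units on normal diet (SE; limma adjusted p = 0.296) and -0.08 ± 0.30 on the high-cholesterol diet. The test of the difference between these changes gave 0.93 ± 0.42 (limma adjusted p = 0.893). Without the second wild-type normal-diet array, the lowest of its group, the change on normal diet was -1.33 ± 0.27, and without the first, the highest, it was -0.68 ± 0.26. Averaged with a dim probe set of the same gene (mean 2.99 log2 units), it was -0.52 ± 0.17.

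Irs2, the other receptor substrate in hepatocytes and a gene that normally rises in fasting, showed no order of the groups. Its values were 5.12, 5.56 and 6.12 in wild type and 4.85, 6.37 and 5.41 in Lats2-CKO on normal diet. With the high-cholesterol diet they were 5.75, 6.43 and 5.88 in wild type and 5.18, 6.09 and 5.69 in Lats2-CKO. All 4 groups overlapped, and the group means lay between 5.54 and 6.02. The diet change over both genotypes was 0.27 ± 0.27 log2 units (SE; limma adjusted p = 0.657), and the genotype change over both diets was -0.21 ± 0.27 (adjusted p = 0.952).

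Ppargc1a, which encodes the coactivator PGC-1alpha of gluconeogenic and mitochondrial genes, had the largest diet change of the 9 in Lats2-CKO and over both genotypes, but not in wild type, where the fitted changes of Irs1, Irs2, Insr and G6pc were larger. In Lats2-CKO its values were 6.12, 6.22 and 5.93 on normal diet, against 7.46, 7.17 and 7.28 on the high-cholesterol one, with a wide gap between the groups. In wild type they were 6.33, 6.14 and 7.91 on normal diet, against 7.88, 6.36 and 7.24 on the high-cholesterol one, so the third normal-diet array was higher than every other. The diet change was 1.21 ± 0.44 log2 units in Lats2-CKO (SE; limma adjusted p = 0.255), 0.36 ± 0.44 in wild type (adjusted p = 0.827) and 0.79 ± 0.31 over both genotypes (adjusted p = 0.218). The wild-type change turned on single livers, from 0.01 without the first high-cholesterol array and 0.04 without the second normal-diet array to 0.76 without the second high-cholesterol array and 0.92 without the third normal-diet array. The SE in Lats2-CKO reflects a spread shared by the 4 groups, while its own 2 groups each had an SD of 0.15. Fitted on those 6 arrays alone, the same 1.21 had an SE of 0.12 and passed (limma adjusted p = 0.0115). More genes of the whole array also passed in this fit than in the fit to all 4 groups, and their number is given with the alternatives below. Within the array sets with the higher and the lower overall median the changes were 1.29 and 1.30 in Lats2-CKO. In wild type they were 1.64 and -1.11, where the third array is the only normal-diet one of the lower set. In each genotype the higher set held 2 normal-diet arrays and 1 high-cholesterol array, and the lower set the reverse. The difference between the genotypes in their diet change was 0.85 ± 0.63 (adjusted p = 0.957), so the changes were not shown to differ.

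Slc2a2, the gene of the transporter GLUT2 that carries glucose into and out of hepatocytes, followed a similar order. Its values were 9.56, 9.46 and 10.57 in wild type and 9.27, 9.60 and 9.92 in Lats2-CKO on normal diet, against 10.02, 10.47 and 10.11 in wild type and 10.07, 9.93 and 10.09 in Lats2-CKO on the high-cholesterol diet. The Lats2-CKO diet groups did not overlap, and in wild type the third normal-diet array was again the highest of the 6. The diet change over both genotypes was 0.39 ± 0.19 log2 units (SE; limma adjusted p = 0.317), 0.34 in wild type and 0.43 in Lats2-CKO. Within the higher and the lower array set it was 0.58 and -0.10 over both genotypes, and 0.63 and 0.09 in Lats2-CKO. Each of these within-set changes has only 1 array per genotype on 1 of its sides. With the sets as a block the diet change was 0.24 ± 0.16 over both genotypes (adjusted p = 0.499). For Insr the corresponding changes within the sets were 0.37 and 0.18, and 0.28 ± 0.10 with the block (adjusted p = 0.201). In Lats2-CKO, 3 of the 9 genes (Insr, Ppargc1a and Slc2a2) were separated by diet, against 19.5% of all genes, and 1 (Fbp1) was in wild type, against 13.8%.

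Leaving out the third wild-type normal-diet array brought these 3 genes past the test for diet over both genotypes. Insr was higher on the high-cholesterol diet by 0.49 ± 0.10 log2 units (SE; 1.41-fold, limma adjusted p = 0.0138), Ppargc1a by 1.07 ± 0.22 (2.10-fold, adjusted p = 0.0200) and Slc2a2 by 0.56 ± 0.13 (1.48-fold, adjusted p = 0.0255). For each of them all 6 high-cholesterol livers then lay above the 5 remaining normal-diet livers, though the gap was small, with 8.41 against 8.39 for Insr, 6.36 against 6.33 for Ppargc1a and 9.93 against 9.92 for Slc2a2. Without that array 7.24% of all genes passed (3.14% in the higher direction) and 6.12% did not overlap (2.64% in the higher direction), so the 3 calls came with many others. Within 1 genotype no gene of the 9 passed without it, and the shares of all genes that did were 2.33% in wild type and 2.11% in Lats2-CKO. In wild type the diet changes were then 0.60 for Insr (adjusted p = 0.0602), 0.92 for Ppargc1a (adjusted p = 0.191) and 0.69 for Slc2a2 (adjusted p = 0.0881), and 5 of the 9 genes did not overlap, against 36.4% of all genes with 2 arrays against 3. The array was singled out by values that resembled the other diet, so its loss enlarges diet differences by construction. With the array sets as a block as well, Ppargc1a was higher by 1.33 (adjusted p = 0.00934) and Insr by 0.39 (adjusted p = 0.0396), while Slc2a2, at 0.45, no longer passed (adjusted p = 0.0868). Many more genes of the whole array also passed under this setting than with all arrays and no block. Their number is given with the alternatives below. Leaving out any of the other 11 arrays called none of the 9 genes for diet over both genotypes.

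**Figure D2:**
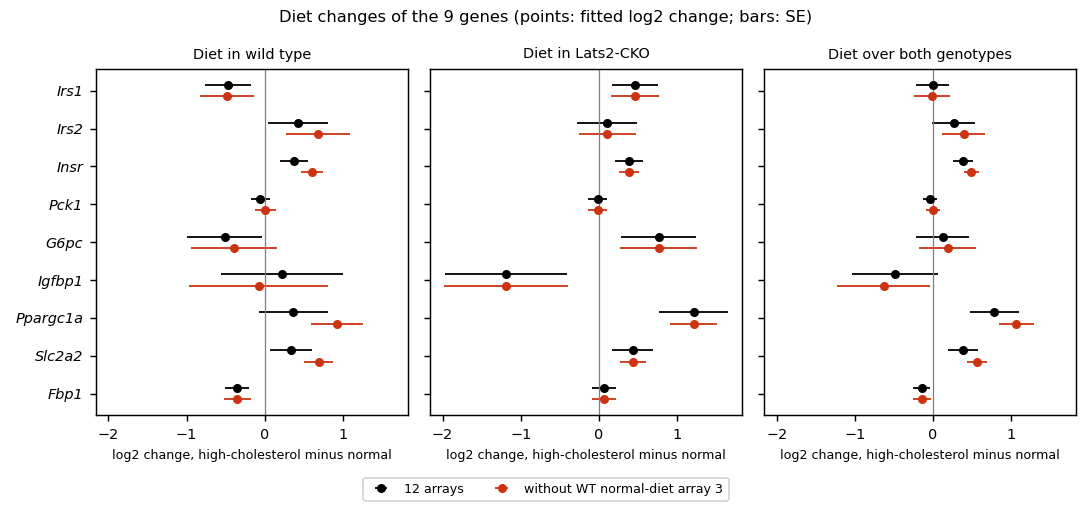
Fitted log2 change with diet (horizontal axes, high-cholesterol minus normal) with its SE for the 9 genes in wild type, in Lats2-CKO and over both genotypes, with all 12 arrays (black) and without the third wild-type normal-diet array (red). Insr, Ppargc1a and Slc2a2 lie to the right of 0 in each panel, and over both genotypes their red points are at 0.49, 1.07 and 0.56, while Pck1 stays within 0.06 of 0 throughout.

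Of the enzymes, Pck1, the cytosolic PEPCK gene of the committed step from oxaloacetate, was the steadiest. It measured 11.70, 11.83 and 11.95 in wild type and 11.70, 11.77 and 11.86 in Lats2-CKO on normal diet. With the high-cholesterol diet it measured 11.57, 11.96 and 11.78 in wild type and 11.60, 11.85 and 11.83 in Lats2-CKO. All groups overlapped. The diet change over both genotypes was -0.04 log2 units with a 95% interval of -0.22 to 0.15, and the genotype change over both diets was -0.03 with an interval of -0.22 to 0.16, so larger mean shifts lie outside these intervals. The intervals were wider for diet within wild type (-0.32 to 0.21) and within Lats2-CKO (-0.28 to 0.25). They were also wider for genotype on normal diet (-0.32 to 0.22) and on the high-cholesterol diet (-0.27 to 0.26).

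Fbp1, the gene of fructose-1,6-bisphosphatase, was held tightly in wild-type livers on normal diet, at 12.46, 12.41 and 12.45. On the high-cholesterol diet wild-type livers measured 11.79, 12.22 and 12.24, all lower, while Lats2-CKO livers measured 12.13, 11.91 and 12.43 on normal diet, against 12.09, 12.30 and 12.30 on the high-cholesterol one. The diet change was -0.36 ± 0.15 log2 units in wild type (SE; limma adjusted p = 0.449) and 0.07 ± 0.15 in Lats2-CKO, and the test of their difference gave 0.42 ± 0.21 (adjusted p = 0.924). The third normal-diet array, which stood apart for other genes, was at the level of its group for Fbp1, and without it the wild-type change was -0.35 ± 0.18. Without the first wild-type high-cholesterol array, the lowest of the 12, it was -0.21 ± 0.14 (adjusted p = 0.641). With the array sets as a block and without the third normal-diet array it was -0.59 ± 0.11 and passed (adjusted p = 0.0404). Many other genes passed under that setting, and their count is given with the alternatives below.

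G6pc, the gene of the phosphatase that releases free glucose from the hepatocyte, was uneven in the mutant livers on normal diet. Those 3 livers measured 8.70, 10.93 and 9.38, while wild-type livers given the same chow measured 10.86, 11.16 and 11.36. On the high-cholesterol diet wild-type livers measured 11.18, 10.10 and 10.56 and Lats2-CKO livers 10.92, 10.29 and 10.10. The second Lats2-CKO liver on normal diet was within the wild-type range and the other 2 were the lowest of all 12. The genotype change was -1.46 ± 0.48 log2 units on normal diet (SE; limma adjusted p = 0.350) and -0.18 ± 0.48 on the high-cholesterol diet (adjusted p = 1), and the interaction was 1.28 ± 0.68 (adjusted p = 0.929). Without the first Lats2-CKO normal-diet array the change on normal diet was -0.97 ± 0.45, and without the second it was -2.09 ± 0.34 (adjusted p = 0.214).

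Igfbp1, the gene of a secreted binding protein that insulin represses, had the widest spread of the 9. Lats2-CKO livers on normal diet measured 6.95, 10.65 and 10.04, so the lowest and the highest value of all 12 livers came from this 1 group. The other groups measured 7.51, 8.97 and 7.36 (wild type, normal diet), 8.41, 7.64 and 8.43 (wild type, high-cholesterol diet) and 7.81, 8.01 and 8.27 (Lats2-CKO, high-cholesterol diet). The genotype change on normal diet was 1.27 ± 0.78 log2 units (SE; limma adjusted p = 0.698), the diet change in Lats2-CKO was -1.19 ± 0.78 (adjusted p = 0.560), and the interaction was -1.40 ± 1.10 (adjusted p = 0.964). Both changes turned on the Lats2-CKO normal-diet livers. Without the first of them, the low one, they were 2.40 ± 0.44 (adjusted p = 0.0642) and -2.32 ± 0.44 (adjusted p = 0.0656), and without the second, the highest, 0.55 ± 0.76 and -0.47 ± 0.76. With all arrays the 95% interval of the genotype change on normal diet ran from -0.45 to 2.99, so these arrays leave its size and direction unsettled.

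**Figure D3:**
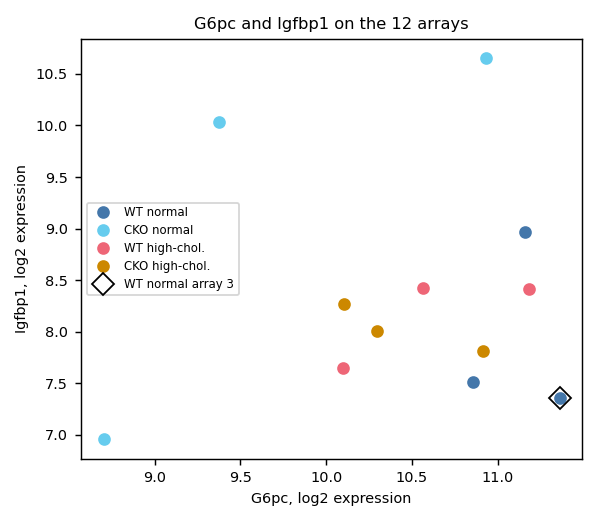
Log2 expression of G6pc (horizontal axis) against Igfbp1 (vertical axis) on the 12 arrays, coloured by genotype and diet, with the third wild-type normal-diet array ringed by a diamond. The 3 Lats2-CKO livers on normal diet lie far apart, at 8.70 and 6.95, 10.93 and 10.65, and 9.38 and 10.04, while the other 9 livers lie between 10.10 and 11.36 for G6pc and between 7.36 and 8.97 for Igfbp1.

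Livers of the same group lay farther apart than for most genes of the array in 7 of the 9 genes, all but Fbp1 and Pck1, though Insr only slightly so. The within-group SD was 1.12 log2 units for Igfbp1, 0.68 for G6pc, 0.63 for Ppargc1a, 0.54 for Irs2, 0.42 for Irs1, 0.37 for Slc2a2, 0.24 for Insr, 0.19 for Fbp1 and 0.14 for Pck1, against a median of 0.21 over 15606 genes at or above the 30th percentile of signal. Igfbp1, G6pc, Ppargc1a and Irs2 stood at the 99.5th, 97.7th, 97.0th and 95.5th percentiles of that spread, Insr at the 59.0th, Fbp1 at the 41.2nd and Pck1 at the 19.4th. Within Lats2-CKO livers on normal diet Igfbp1 and G6pc stood at the 99.9th and 99.5th percentiles. For Ppargc1a the spread came from the wild-type groups. In wild type it stood at the 99.0th percentile with normal chow and the 97.0th with the other diet. In the Lats2-CKO groups it stood at the 37.0th and 43.9th. The wild-type spread with normal chow rests on the third array, at 7.91 against 6.33 and 6.14. That array also lay above its group for Insr (8.74 against 8.00 and 8.15) and Slc2a2 (10.57 against 9.56 and 9.46). These SDs and percentiles were not computed without it.

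Genotype gave no call among the 9 genes on either diet, and the point estimates on normal diet were mostly below 0. On normal diet 8 of the 9 changes were negative, with a median of -0.26 log2 units against 0.00 over all genes, and 1 gene (Irs1) was separated between genotypes, against 13.3% of all genes. On the high-cholesterol diet the median was -0.08 against 0.01, and none of the 9 was separated, against 7.44% of all genes. The count of negative changes on normal diet fell to 4 of 9 without the third wild-type normal-diet array, with a median of 0.01. Irs2, Insr, Pck1 and Slc2a2 then turned positive, and Ppargc1a shrank from -0.71 to -0.15. Irs1 and G6pc kept most of their size without that array, at -1.03 ± 0.35 and -1.34 ± 0.55 (SE), neither past the test. Irs2 also turned positive without the first or the third Lats2-CKO normal-diet array, and Insr without the second. Beside these changes all 8 macrophage and Kupffer cell markers were lower in Lats2-CKO in point estimate, with medians of -0.63 for normal chow and -0.91 for the high-cholesterol diet. On the high-cholesterol diet the list mean overlapped between genotypes, at 8.27, 9.25 and 7.28 in wild type and 7.01, 7.55 and 7.57 in Lats2-CKO. All 6 adipocyte markers were higher with normal chow, with a median of 0.51. Only 3 of those 6 reached the 30th percentile of signal, and the direction of the dim ones carries little weight. No marker of either list passed for genotype, and their part in the values of the 9 genes was not tested.

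**Figure D4:**
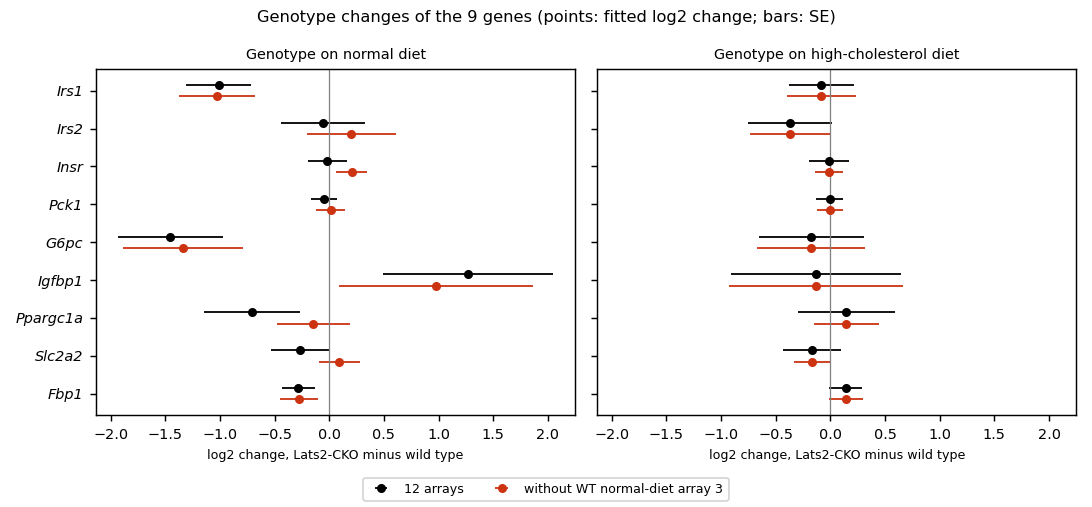
Fitted log2 change with genotype (horizontal axes, Lats2-CKO minus wild type) with its SE for the 9 genes on each diet, with all 12 arrays (black) and without the third wild-type normal-diet array (red). On normal diet Irs1 and G6pc lie at -1.01 and -1.46 and Igfbp1 at 1.27 with a long bar, and on the high-cholesterol diet every point is within 0.37 of 0.

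As a description of which transcripts ran with each of the 9 over the 12 arrays, the closest of 13776 genes were taken by Pearson correlation, with no test since the arrays fall into 4 groups and the genes were picked as the highest of many. Nearest to Insr was Met (0.97), the receptor of hepatocyte growth factor, followed by Ric1 (0.96) and Atm (0.95). Nearest to Ppargc1a were Il22ra1 (0.95), a subunit of the interleukin-22 receptor, Emp2 (0.94) and Dnase2b (0.94), and nearest to Slc2a2 were Rnf152 (0.96), Cdk19 (0.93) and Rb1cc1 (0.93). Irs1 ran closest to Pradc1 (0.90), Mif4gd (0.89) and Higd2a (0.86), and Irs2 to Bcl10 (0.95), Map4k5 (0.93) and Jrkl (0.89). For the enzymes the nearest were Ndel1 (0.93), Narf (0.90) and Azi2 (0.89) to Pck1, Ptpmt1, Necap1 and Bag6 (0.90 each) to Fbp1, and Iqcg (0.89), Lyve1 (0.86) and Zfp689 (0.85) to G6pc. Igfbp1 ran closest to Fbxo4 (0.90), Tubb6 (0.90) and Trp53inp1 (0.89), a target of p53. No other of the 9 genes was among the closest 3 of any of them.

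The rest of the pathway was read from 7 lists with 113 measured genes, which hold none of the 9. With all arrays 1 of the 113 passed for diet over both genotypes (0.88%, against 1.24% of all genes) and none in the other 6 comparisons, while 31 of them (27.4%, against 18.0% of all genes) had an unadjusted limma p under 0.05 for diet over both genotypes. The gene that passed was Shc1, an adaptor that links the receptor to the Ras pathway, which fell by 0.49 ± 0.10 log2 units (SE; limma adjusted p = 0.0446). Its normal-diet values were 7.80, 7.58 and 7.25 in wild type and 7.61, 7.86 and 7.83 in Lats2-CKO, and its high-cholesterol values were 7.06, 7.26 and 7.15 in wild type and 7.06, 7.27 and 7.22 in Lats2-CKO, with only the third wild-type normal-diet array within the range of the other diet. Shc1 passed in 6 of 21 alternatives, with adjusted p from 0.00408 to 0.125.

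Without the third wild-type normal-diet array 12 of the 113 passed for diet over both genotypes (10.6%, against 7.24% of all genes), 8 higher and 4 lower on the high-cholesterol diet. The insulin signal transduction list had 3 higher and 1 lower of 24, with a median of 0.10 log2 units, namely Foxo1 (0.67 ± 0.17, SE), the factor that insulin holds inactive, Pik3cb (0.63 ± 0.15), a catalytic subunit of PI3-kinase, Tsc1 (0.61 ± 0.13), a restraint on mTORC1, and Shc1 (-0.56 ± 0.08). Other gluconeogenic enzymes and transporters had 3 lower of 18, with a median of -0.12, namely Ldha (-0.69 ± 0.10), Tat (-0.62 ± 0.10) and Mdh2 (-0.54 ± 0.07), which handle lactate, tyrosine and malate. The glycolysis and glycogen list had 3 higher of 15, with a median of 0.18, namely Srebf1 (1.47 ± 0.33), a lipogenic factor that insulin induces, Ugp2 (0.95 ± 0.11), which makes UDP-glucose, and the glycogen phosphorylase gene Pygl (0.48 ± 0.10). Transcriptional regulators of gluconeogenesis had 1 higher of 18, the glucocorticoid receptor gene Nr3c1 (0.39 ± 0.08), and the clock list 1 of 13, Nr1d1 (0.47 ± 0.10). Of the insulin-like growth factor axis (12 genes) and the fasting-induced genes (13 genes), none passed. With all arrays the limma adjusted p of these genes other than Shc1 ran from 0.0604 for Tat to 0.210 for Tsc1. Foxo1, Pik3cb, Tsc1, Mdh2, Srebf1 and Ugp2 are named after their values were seen.

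The clock and fasting lists bear on time and feeding, which the labels leave unrecorded. Nr1d1, a repressor of the clock, measured 7.91, 7.77 and 7.78 in Lats2-CKO livers on normal diet, below the 8.31 to 9.16 of the other 9 livers, but its genotype difference on normal diet, -0.90 ± 0.19 log2 units (SE), did not pass (limma adjusted p = 0.204). Ciart, another clock repressor, overlapped between the genotypes on normal diet, at 7.59, 6.51 and 7.18 in Lats2-CKO and 7.21, 6.25 and 5.36 in wild type. Arntl was separated there by a narrow gap, at 3.43 to 4.21 in Lats2-CKO and 4.29 to 5.69 in wild type. So was Per1, of the fasting list, at 7.53 to 7.82 and 7.83 to 8.73, while Dbp overlapped. Of all genes 13.3% were separated in this comparison. Arntl, Per1 and Dbp are named after their values were seen. Of the 13 clock genes none passed for genotype on normal diet, with 7 differences positive, 6 negative and a median of 0.08. None of the 13 fasting-induced genes passed in any comparison, but the 2 with the smallest unadjusted p, Acot1 and Lpin1, were each separated between the genotypes on normal diet. Lpin1, whose product makes diacylglycerol and also acts with PGC-1alpha, measured 8.81, 8.75 and 9.78 in wild type and 10.30, 10.62 and 10.90 in Lats2-CKO, a difference of 1.5 ± 0.39 log2 units (SE; limma adjusted p = 0.251). Acot1, a thioesterase of long acyl-CoAs, measured 5.82, 6.31 and 6.16 in wild type and 4.80, 4.39 and 5.40 in Lats2-CKO, a difference of -1.24 ± 0.28 (limma adjusted p = 0.222). With the high-cholesterol diet both genes overlapped between genotypes, and over the list on normal diet 6 differences were positive and 7 negative, with a median of -0.05 against 0.00 over all genes. The part of sampling time or feeding in the 9 genes' values was not tested.

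**Figure D5:**
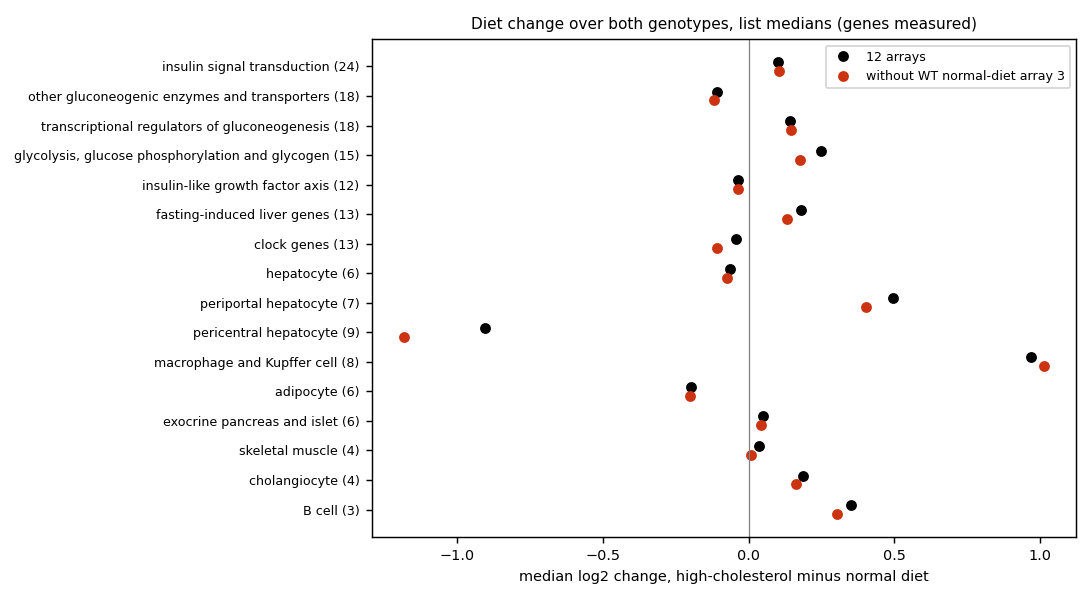
Median log2 change with diet over both genotypes (horizontal axis, high-cholesterol minus normal) for the 7 pathway lists and 9 cell type marker lists, with the number of genes measured in brackets, with all 12 arrays (black) and without the third wild-type normal-diet array (red). The pathway lists lie between -0.12 and 0.25, while the pericentral markers lie at -0.91 and -1.18 and the macrophage markers at 0.97 and 1.01.

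Markers of several cell types and liver zones passed the test for diet over both genotypes. The mean of 8 macrophage and Kupffer cell markers was 6.34 to 7.40 on normal diet apart from the third wild-type array (7.07) and 7.01 to 9.25 on the high-cholesterol diet, and 2 of the 8 rose with all arrays, Cd5l by 1.78 ± 0.32 log2 units (SE; limma adjusted p = 0.0380) and Clec4f by 0.53 ± 0.09 (adjusted p = 0.0327). Among 9 pericentral markers Rhbg fell by 1.79 ± 0.33 (adjusted p = 0.0403) and Oat by 1.64 ± 0.32 (adjusted p = 0.0431), and among 7 periportal markers Hal, the enzyme that opens histidine breakdown, rose by 0.90 ± 0.15 (adjusted p = 0.0305). Of 6 adipocyte markers, which fat-laden hepatocytes also express in part, only Cidec, a lipid droplet protein, fell (by 2.99 ± 0.38, adjusted p = 0.0192). Markers of pancreas and islet (2.98 to 3.30) and of skeletal muscle (2.88 to 3.16) had means near the dim end of the scale on every array, where the 30th percentile of all values is 3.04, and no cholangiocyte or B cell marker passed, with means of 3.70 to 4.26 and of 3.02 to 5.15. The 6 marker genes named as risen or fallen each passed in 8 to 19 of 21 alternatives, and all 6 passed without the third wild-type normal-diet array. In whole liver, fewer cells of a type and less RNA per cell cannot be told apart, and the part of zonation or cell mixture in the values of Insr, Ppargc1a and Slc2a2 was not tested.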

How the data were processed

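Per the submitters' processing notes, the authors processed the arrays by RMA in Partek 6.6, and the deposited log2 values per probe set were used as given. The log2 scale was inferred from their range (1.94 to 14.16). RMA settings, genome build and filters are not given in the sources used here. Of 41345 probe sets, 23521 had 1 symbol, 1814 had several and 16010 had none, and those with 1 gave 22180 genes by the probe set with the highest mean. Symbols were updated through RefSeq (GRCm38.p6). In R 4.3.3, limma 3.58.1 (lmFit, eBayes) fitted 4 group means to 12 arrays, with p-values adjusted by Benjamini-Hochberg over all genes at a threshold of 0.05, and the fit was tested on simulated data. Intervals are 95%. The labels number 3 biological replicates per group, and whether they were littermates or cage mates is not stated. Named genes were all 9 genes, Lats2, and from each list up to 4 genes past the threshold, otherwise the 2 with the smallest unadjusted p, and the 3 genes most like each of the 9. The genes, lists, tests and alternatives were chosen with earlier results of these data known. Alternatives changed the arrays, genes or probe sets used, the scaling, the weights, the prior and the blocks. Precision is limited by the number of arrays.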

Additional observations from a re-analysis of the deposited data

How the results depend on the processing

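Over the 9 genes, 7 comparisons and 22 alternatives, 1348 of 1359 values kept their side of the threshold, 9 came to pass it and 2 turned sign. A sign change of a value within 1 SE of 0 was not counted (83 such values). With the array set (higher or lower overall median) as a block and without the third wild-type normal-diet array, the diet change of G6pc in wild type was 0.0536 and the genotype change of Ppargc1a on normal diet was 0.0258, both from below 0. Under that setting 1 of the 9 passed for diet in wild type (Fbp1), 1 in Lats2-CKO (Ppargc1a) and 2 over both genotypes (Insr and Ppargc1a). A fit on only the groups compared called 1 in Lats2-CKO (Ppargc1a), and array weights called 1 over both genotypes (Insr). Many other genes passed under these settings too, and their counts follow in the next paragraph. Leaving out 1 array called 0 to 3 over both genotypes.

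Counts over all genes moved more. For diet in wild type (0), array weights gave 13 and the set block without that array 374 (leave-one-out 0 to 516). For diet in Lats2-CKO (60), a fit on only the groups compared gave 265, a trended robust prior 98, array weights 274, loss of dim genes 104, the set block 33 and the set block without that array 573 (5 to 468). For diet over both genotypes (274), these were array weights 1371, loss of dim genes 421, the set block 43 and the set block without that array 1229 (6 to 1605). For genotype on normal diet (3), a fit on only the groups compared gave 1, the prior 5, the set block 11 and the set block without that array 6 (3 to 17). For genotype on the high-cholesterol diet (0) leave-one-out gave 0 to 22. For genotype over both diets (1), the prior gave 2, array weights 3, the set block 2 and the set block without that array 2 (1 to 8). For the interaction (1), the prior gave 2, loss of dim genes 3 and the set block 2 (1 to 2). The causes were not tested.

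Deviations of same-numbered arrays correlated weakly (0.00 to 0.18, positive in 18 of 18 pairs, over 0.1 in 7), those of differently numbered arrays were negative in 27 of 36 pairs, and 11 of 12 arrays followed their own number best. All 4 arrays numbered 1 were in the higher set and all 4 numbered 3 in the lower. This is a hint from the data and not from the design, so the numbers were not taken as pairs. With the replicate block 0 of the 9 genes passed in every comparison, and over all genes 0, 58, 311, 3, 0, 1 and 1 did, in the order of comparisons above.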
